A study of Homo sapiens with 120 samples.

Results

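The genes described here encode the proteasome: its subunits, activators, inhibitor and assembly chaperones. Members were taken by name, as every gene whose symbol starts with PSMA, PSMB, PSMC, PSMD, PSME, PSMF or PSMG followed by a number and that has an array probe set naming this gene alone. The rule found 50 of 19775 genes, and 47 of them were bright enough to be tested among 14023 tested genes. Of the 50, 42 were proteasome subunits or cofactors, 41 of them tested. The other 8 symbols belong to antisense or divergent transcripts and to a pair of genes named for a binding partner, PSMC3IP and PSME3IP1, and 6 of these were tested. PSMA8, the testis form of an alpha subunit, and the divergent transcripts PSMD7-DT and PSMD14-DT lay under the brightness limit. PSMA6, PSMB11, PSMC5, PSMD7, PSMD13 and PSME2 had no probe set naming them alone and were not analysed here.

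The proteasome is the cell's main protease for proteins marked with ubiquitin. Its 20S core is a barrel of alpha rings, which gate the entrance, around beta rings, of which PSMB5, PSMB6 and PSMB7 cut protein chains. The 19S particle caps the core. Its ATPases unfold the substrate, and its non-ATPase subunits bind and remove ubiquitin. In lymphoid cells PSMB8, PSMB9 and PSMB10 replace the cutting subunits to form the immunoproteasome, which supplies peptides for antigen presentation.

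The study asked how the gene expression response to formaldehyde compares with that to chemicals of known genotoxic action. TK6, a human B lymphoblast cell line, was left untreated or exposed for 4 h or 24 h to formaldehyde (FA) at 50, 100 or 200 µM, methyl methanesulfonate (MMS) at 80, 160 or 320 µM, ethyl methanesulfonate (EMS) at 1, 2 or 4 mM, or to 1 of 3 doses of colcemid (COL) or vincristine (VCR). MMS and EMS alkylate DNA, whereas colcemid and vincristine disturb the spindle. The doses of colcemid and vincristine are called lowest, middle and highest here, because the labels give their size in conflicting ways. Untreated arrays were run anew for each chemical at 4 h and at 24 h, no other agent or genotype is named, and each of the 40 groups held 3 arrays numbered as experiments 1 to 3. The labels do not say whether the 3 experiments were separate cultures, so p-values measure the spread between these arrays. All groups come from 1 cell line.

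Values are log2 signals, and the number of arrays limits their precision. Array medians lay between 6.133 and 6.243. The B cell identity of the line was visible in 6 of 6 measured B cell markers, which had untreated means from 8.69 to 12.3 on the log2 scale against a brightness limit of 6.183. Of the markers of other cells, 3 of 5 T and NK cell genes, 1 of 4 monocyte and granulocyte genes and 2 of 4 epithelial and fibroblast genes passed that limit, while CD3E, CD8A, CD14, LYZ, MPO, EPCAM and COL1A2 lay below it. In the formaldehyde set 1 untreated array, from experiment 3 at 4 h, stood apart, with a mean correlation of 0.9943 with its group, the lowest of the 120 arrays. Counts that rest on it, and named changes that move by over 1.5 times or lose their call without it, are given with and without it. RNA quality was also uneven in that untreated group. Its ACTB 3' minus 5' probe difference was 0.443 (SD 0.207, n = 3), beside 0.367 (SD 0.032, n = 3) at 200 µM and 4 h. The part of this difference in the 4 h changes was not tested.

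Proteasome genes were among the brightest on the array. The median over tested members was 11.47 on the log2 scale against 8.15 over all tested genes, and 31 of 47 members lay in the brightest 10%. Where 3 or more members were called, their counts are therefore given beside the share over all genes tested and beside that over the brightest 10%. A gene was called higher or lower at a limma adjusted p under 0.05 across all tested genes.

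Promoter windows of 4 members are shown, because PSMC4 and PSMD8 had the greatest rises of any core or 19S subunit 4 h into formaldehyde, PSMB9 rose with formaldehyde at both times, and PSMG4 fell at 24 h with the highest dose of every chemical on the probe set used. Each window runs from 250 bases before to 50 bases after the gene's start, on the plus strand of GRCh38.p14, from RefSeq. Capitals mark the letters TGACNNNGC read on either strand, the core of the antioxidant response element, which NRF1 and NRF2 are known to bind. The windows lie at chr19:39970915-39971214 (PSMC4), chr19:38374321-38374620 (PSMD8), chr6:32853942-32854241 (PSMB9) and chr6:3258697-3258996 (PSMG4).
PSMC4: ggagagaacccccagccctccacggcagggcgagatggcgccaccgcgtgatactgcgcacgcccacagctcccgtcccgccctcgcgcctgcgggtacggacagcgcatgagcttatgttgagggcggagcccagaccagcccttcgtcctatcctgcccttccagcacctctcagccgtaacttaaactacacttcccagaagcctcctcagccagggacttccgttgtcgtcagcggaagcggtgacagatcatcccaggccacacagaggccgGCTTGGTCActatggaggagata
PSMD8: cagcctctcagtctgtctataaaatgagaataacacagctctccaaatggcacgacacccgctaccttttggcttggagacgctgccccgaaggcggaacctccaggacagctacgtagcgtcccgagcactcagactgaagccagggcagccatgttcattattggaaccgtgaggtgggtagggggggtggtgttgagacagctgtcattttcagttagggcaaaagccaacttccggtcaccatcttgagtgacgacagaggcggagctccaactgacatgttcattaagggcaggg
PSMB9: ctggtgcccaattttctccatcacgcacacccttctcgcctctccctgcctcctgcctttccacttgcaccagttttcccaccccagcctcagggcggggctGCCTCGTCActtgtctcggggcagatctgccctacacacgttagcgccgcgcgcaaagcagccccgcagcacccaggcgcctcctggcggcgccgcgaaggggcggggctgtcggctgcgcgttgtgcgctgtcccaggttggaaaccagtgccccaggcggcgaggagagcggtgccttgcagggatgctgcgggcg
PSMG4: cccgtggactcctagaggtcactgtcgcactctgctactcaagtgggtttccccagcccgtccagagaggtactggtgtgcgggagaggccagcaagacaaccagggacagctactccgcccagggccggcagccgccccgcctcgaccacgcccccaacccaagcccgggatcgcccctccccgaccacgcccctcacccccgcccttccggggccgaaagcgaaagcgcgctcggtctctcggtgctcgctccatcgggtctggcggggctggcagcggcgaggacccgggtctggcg
PSMC4 holds the letters from base 28 after the start, on the minus strand, and PSMB9 holds them from base -148, also on the minus strand. The windows of PSMD8 and PSMG4 do not hold them. Of the 50 members, 43 had at least 1 window in the table, and 14 of these had a match, in 14 of 52 windows or 26.9%. The share over all 35116 windows was 13.3%. CCAAT on either strand, which can share an end base with these letters, was in 42.3% of member windows and 34.6% of all windows. A match describes the letters, and no binding was measured.

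**Figure D1:**
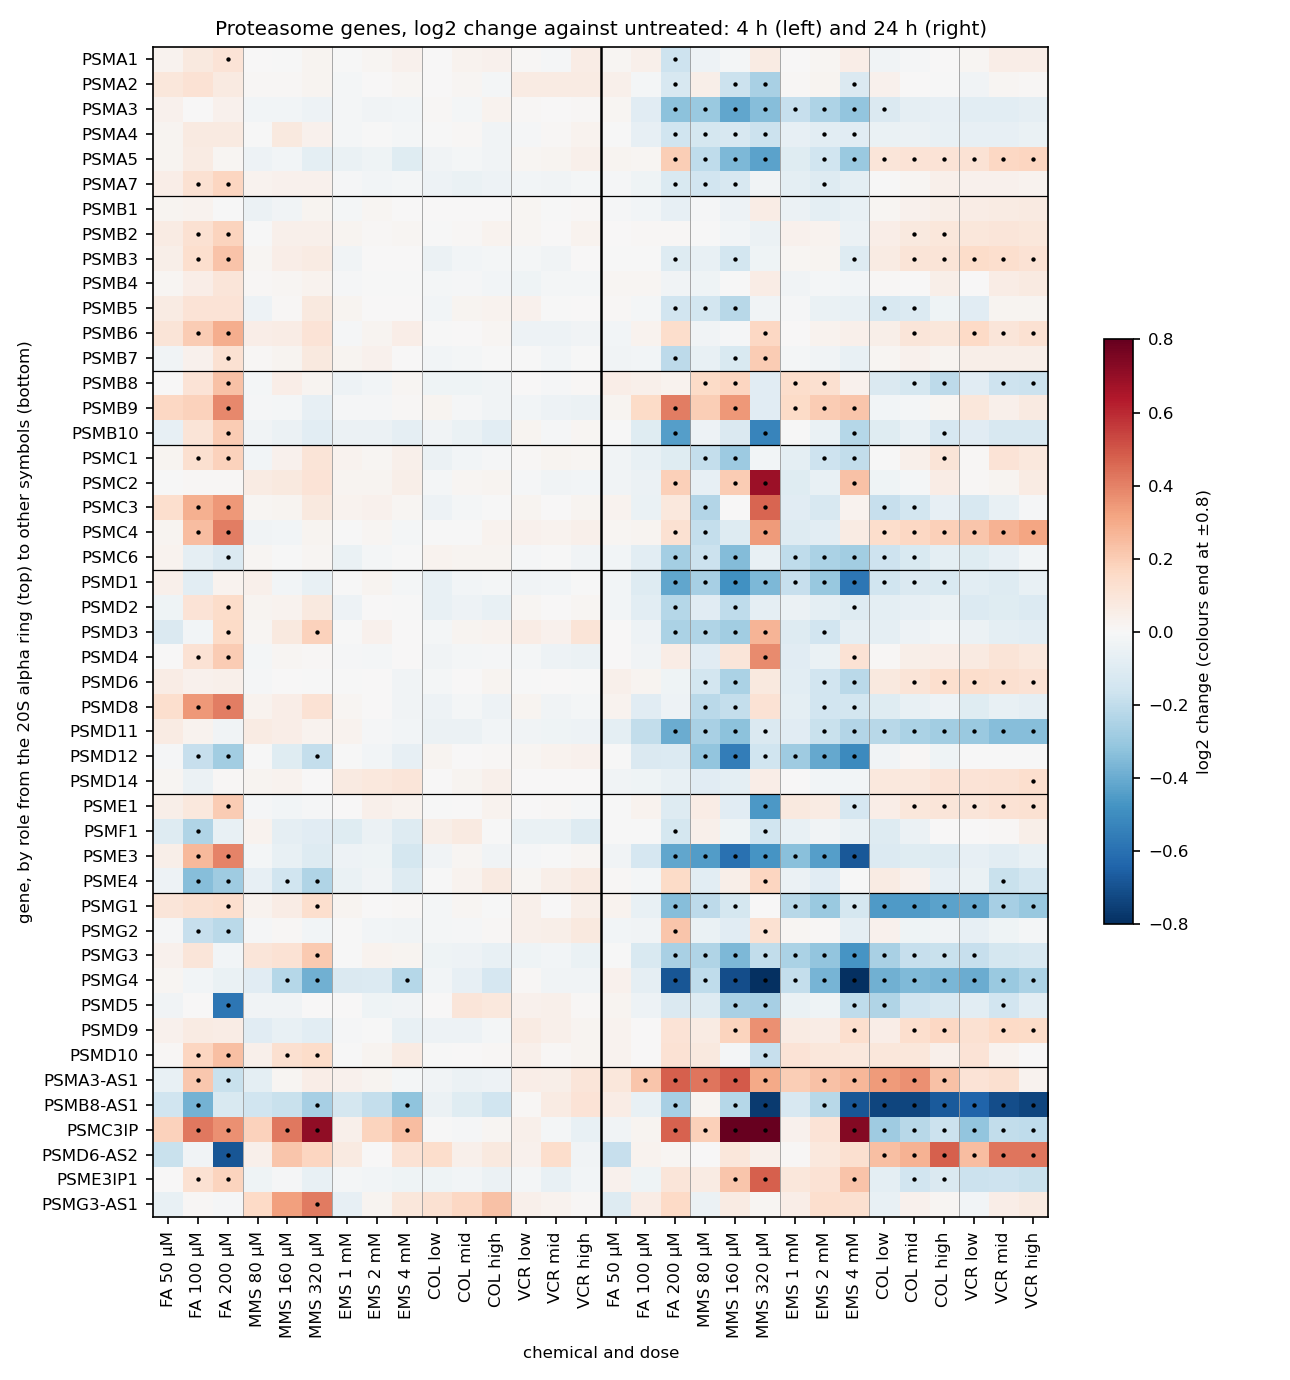
Log2 change of each of the 47 tested members (rows, by role) against the untreated arrays of the same set and time for 30 combinations of chemical, dose and time (columns, 4 h left of the thick line, 24 h right). Colour gives the change, ending at ±0.8, and a black dot marks a gene called at an adjusted p under 0.05. The 4 h columns are mostly pale except formaldehyde at 100 and 200 µM, while the 24 h columns are mostly blue for formaldehyde at 200 µM, MMS and EMS.

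After 4 h at 200 µM formaldehyde, more proteasome genes rose than fell. Of 47 members, 22 rose and 7 fell, against 29.6% higher and 24.2% lower over all genes tested. The members' shares were 46.8% higher and 14.9% lower, and in the brightest 10% of genes 35% were higher and 22.2% lower. Among the role groups, 4 of 7 standard beta subunits, 3 of 3 immunoproteasome subunits, 3 of 5 ATPases, 4 of 9 non-ATPases and 2 of 6 alpha subunits rose. The median log2 change was 0.10 over members and 0.08 over all genes tested. Without the untreated array that stood apart, 21 members rose and 6 fell. With quantile normalization 17 rose and 6 fell, and with the experiment as a block 24 rose and 7 fell. Of all genes called, 59.4% were higher with quantile normalization, 56.2% with the block and 55% in the main fit. The brightest 10% were not counted in these 2 settings, so the excess of member rises over them holds for the main fit only. The count of calls ranged from 16 to 23 when 1 experiment was left out, with 16, 18 and 11 rises without experiments 1, 2 and 3.

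PSMC4, an ATPase of the 19S base, read 11.29, 11.28 and 11.12 in the untreated arrays and 11.65, 11.63 and 11.63 at 200 µM. The groups did not overlap, and the log2 change was 0.41 (SE 0.05, limma adjusted p = 3.97e-07), or 1.33-fold. PSMD8, a subunit of the 19S lid, read 11.18, 11.29 and 11.00 untreated and 11.55, 11.60 and 11.55 treated. The lowest treated array again lay above the highest untreated one, at a log2 change of 0.41 (SE 0.06, limma adjusted p = 3.46e-06). Without the array that stood apart, PSMC4 rose by 0.36 and PSMD8 by 0.33. These are the genes whose promoter windows are printed above, 1 with the capital letters and 1 without.

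PSME3 encodes PA28 gamma, a nuclear activator that opens the core without ubiquitin. Its untreated signals of 10.29, 10.23 and 9.99 all lay below the treated signals of 10.64, 10.61 and 10.44, a log2 rise of 0.40 (SE 0.07, limma adjusted p = 5.64e-05). PSMC3, another ATPase, rose by 0.34 (SE 0.07), and by 0.22 (SE 0.05) without the array that stood apart. PSMB6, the caspase-like cutting subunit, rose by 0.29 (SE 0.06). PSMB7, the trypsin-like subunit, rose by only 0.12 (SE 0.05), and that call was lost whenever 1 experiment, or the array that stood apart, was left out. PSMB5, the chymotrypsin-like subunit, was not called.

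The immunoproteasome subunits rose together with these genes. PSMB9 read 11.33, 11.50 and 11.02 in untreated arrays and 11.57, 11.69 and 11.73 at 200 µM, without overlap. Its log2 change was 0.38 (SE 0.09, limma adjusted p = 0.00132), and 0.25 (SE 0.08) without the array that stood apart. PSMB8 rose by 0.24 (SE 0.05) and PSMB10 by 0.20 (SE 0.06). PSME1, which encodes PA28 alpha of the activator associated with the immunoproteasome, rose by 0.20 (SE 0.05).

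Of the 7 members that fell at 4 h, 3 were cofactors, 2 were 19S subunits and 2 were antisense transcripts. PSMD5, a chaperone for assembly of the 19S base, read 8.37, 8.42 and 8.31 in untreated arrays and 7.74, 7.89 and 7.74 at 200 µM. This was the greatest fall among subunits and cofactors, at -0.58 on the log2 scale (SE 0.07, limma adjusted p = 3.15e-07), and the arrays did not overlap. PSMD12, a 19S lid subunit, fell by 0.28 (SE 0.05), PSME4, the PA200 activator, by 0.28 (SE 0.07), and PSMG2, a chaperone of core assembly, by 0.22 (SE 0.04). Outside the subunits, PSMD6-AS2, an antisense transcript, fell by 0.68 (SE 0.14), and by 0.44 (SE 0.10) without the array that stood apart.

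**Figure D2:**
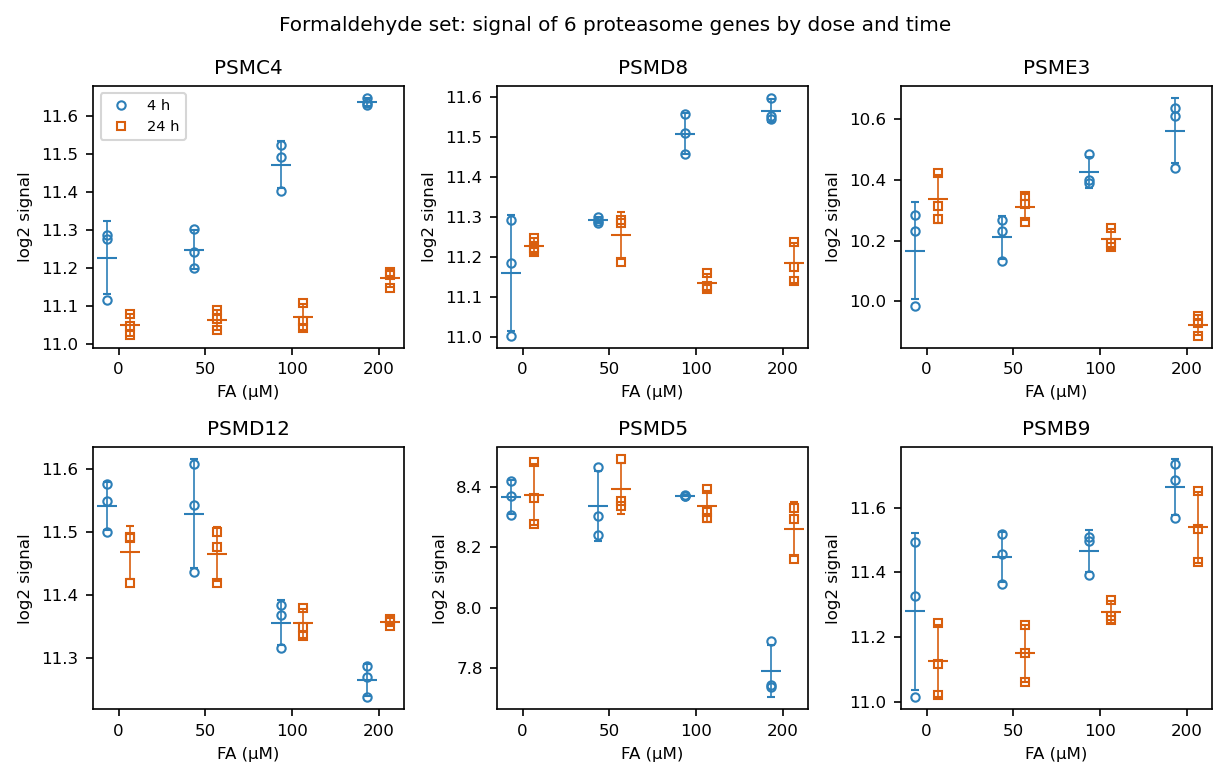
Log2 signal of 6 proteasome genes against formaldehyde dose (µM), at 4 h (circles) and 24 h (squares). Each open symbol is 1 array, bars give the mean and SD of 3 arrays. PSMC4 and PSMD8 climb with dose at 4 h, PSMD5 drops at 200 µM at 4 h, and PSME3 is higher than untreated at 4 h and lower at 24 h.

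At 4 h of formaldehyde the count of called members was greater at higher doses. At 50 µM no member was called, beside 0.82% of all genes called, and 2 members and 1599 genes had an unadjusted limma p under 0.05. At 100 µM 14 members rose and 5 fell, against 20.9% higher and 19.8% lower over all genes tested and 28.6% and 15.8% in the brightest 10%. The count of calls ranged from 9 to 17 when 1 experiment was left out, with 5, 13 and 4 rises without experiments 1, 2 and 3. Without the array that stood apart, 9 rose and 6 fell. PSMD8 read 11.56, 11.46 and 11.51 at 100 µM, above every untreated array, and rose by 0.35 (SE 0.06, limma adjusted p = 3.39e-05).

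The difference between 200 and 100 µM at 4 h was tested directly. It was called for 7 members, 4 higher and 3 lower, and was not called for the other 40. The shares were 8.51% and 6.38% of members, against 17.4% and 17.5% of all genes and 12.7% and 15.9% of the brightest 10%. With the experiment number as a block there were 11 calls, and 4 to 6 when 1 experiment was left out. PSMC4 was higher at 200 than at 100 µM by 0.16 (SE 0.05, limma adjusted p = 0.011). PSMD5 was lower at 200 µM by 0.58 (SE 0.07), after reading 8.37 in mean at 100 µM, beside 8.37 untreated. PSMF1, which encodes the proteasome inhibitor PI31, fell at 100 µM by 0.24 (SE 0.05) and was higher at 200 than at 100 µM by 0.18 (SE 0.05).

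By 24 h at 200 µM formaldehyde falls outnumbered rises. Of 47, 7 rose and 20 fell, against 23.8% higher and 23.9% lower over all genes tested. The members' share lower was 42.6%, and the brightest 10% of genes had 23.1% higher and 42.3% lower. With the experiment as a block 11 members rose and 23 fell, with quantile normalization 12 rose and 19 fell, and without experiment 1 there were 6 rises and 13 falls. Among alpha subunits 5 of 6 fell, among standard beta subunits 3 of 7, among non-ATPases 4 of 9 and among assembly chaperones 3 of 7. The median log2 change over members was -0.10, beside -0.03 over all genes tested. The ACTB 3' minus 5' probe difference, a sign of RNA length on these arrays, was 0.768 (SD 0.070, n = 3) at 200 µM and 0.481 (SD 0.024, n = 3) in untreated arrays, and its part in these falls was not tested. Of 6 measured B cell markers 1 was higher and 5 were lower. In bulk RNA fewer cells of a type and less RNA per cell cannot be told apart.

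PSMG4 encodes PAC4, a chaperone that helps build the alpha ring. It read 11.19, 11.21 and 11.22 in untreated arrays and 10.51, 10.61 and 10.45 at 200 µM, far below the untreated range. The log2 change was -0.69 (SE 0.05, limma adjusted p = 1.45e-10). The array's other PSMG4 probe sets did not follow, as described further on.

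PSMB10, the immunoproteasome counterpart of PSMB7, fell by 0.44 (SE 0.06), from 10.79, 10.96 and 10.77 to 10.34, 10.50 and 10.35. PSMD1, the large scaffold of the 19S base, fell by 0.42 (SE 0.05), from 11.11, 11.16 and 11.09 to 10.66, 10.74 and 10.72. In neither gene did treated and untreated arrays overlap. PSMD11 of the lid fell by 0.40 (SE 0.07), PSMG1, the PAC1 chaperone, by 0.34 (SE 0.05), and PSMA3 of the alpha ring by 0.33 (SE 0.04).

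A few members were higher at 24 h. PSMB9 read 11.12, 11.24 and 11.02 untreated and 11.43, 11.65 and 11.53 at 200 µM, again without overlap, and rose by 0.41 (SE 0.09, limma adjusted p = 0.000628). PSMA5 of the alpha ring rose by 0.20 (SE 0.04) and PSMC2, an ATPase, by 0.19 (SE 0.04). PSMC3IP, a meiotic recombination factor that is not part of the proteasome, rose by 0.47 (SE 0.07).

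The change at 24 h was also tested against the change at 4 h. At 200 µM formaldehyde, 8 members had a higher and 26 a lower change at 24 h, against 25.8% and 27.5% of all genes tested. In the brightest 10% 21% were higher and 42.8% lower, and the members' share lower was 55.3%. Without the array that stood apart 8 were higher and 22 lower, and without experiment 2 there were 5 and 20. PSME3 differed most: it rose at 4 h and fell by 0.41 (SE 0.07) at 24 h, a difference of -0.81 (SE 0.10, limma adjusted p = 4.29e-07). PSMB10 differed by -0.64 (SE 0.09), PSMG1 by -0.47 (SE 0.07) and PSMD8 by -0.45 (SE 0.08). PSMD5 moved the other way, by 0.46 (SE 0.10), as did PSME4 and PSMG2, each by 0.44.

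At 24 h the lower doses of formaldehyde gave 1 call in all. At 50 µM no member was called, beside 0% of all genes, and 0 members and 385 genes had an unadjusted limma p under 0.05. At 100 µM only PSMA3-AS1, an antisense transcript, was called, beside 3.81% of all genes. The block gave 2 calls there, and no call was left without any 1 experiment. The step from 100 to 200 µM at 24 h was called for 24 members, 8 higher and 16 lower, against 20.5% and 22.2% of all genes and 20.8% and 39.9% of the brightest 10%, with 12 to 17 calls when 1 experiment was left out.

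MMS changed few proteasome genes at 4 h. At 80 µM no member was called, beside 1.6% of all genes, and 2 members and 1566 genes had an unadjusted limma p under 0.05. At 160 µM 2 rose and 2 fell, against 6.97% and 6.57% of all genes and 6.06% and 6.56% of the brightest 10%, with 1 to 2 calls when 1 experiment was left out. At 320 µM 6 rose and 4 fell, against 15.3% and 13.4% of all genes and 13.8% and 15.5% of the brightest 10%, with 2 to 8 calls when 1 experiment was left out. PSMG4 fell from 10.64, 10.70 and 10.69 to 10.26, 10.32 and 10.30, by 0.38 (SE 0.06, limma adjusted p = 1.57e-05), and the arrays did not overlap. PSMC3IP rose by 0.71 (SE 0.05).

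At 24 h of MMS more members fell than rose at the low and middle doses, among them many 19S genes. At 80 µM 3 members rose and 19 fell, against 17.6% and 10.9% of all genes tested. The members' share lower was 40.4%, and of the brightest 10% 16.3% were higher and 25.3% lower. Calls ranged from 9 to 15 when 1 experiment was left out, with 8, 8 and 14 falls without experiments 1, 2 and 3. Of the fallers, 4 were among 5 ATPases and 6 among 9 non-ATPases. At 160 µM 7 rose and 23 fell, against 25.7% and 21.6%, and the share lower of 48.9% stands beside 44.2% in the brightest 10%, of which 21.5% were higher. Without experiment 1 there were 4 rises and 17 falls. Here 7 of 9 non-ATPases fell and none rose. Of the ATPases PSMC1 and PSMC6 fell and PSMC2 rose. In the alpha ring PSMA2, PSMA3, PSMA4, PSMA5 and PSMA7 fell, so the falls were not confined to the 19S particle.

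PSMD12 shows the course. It read 11.49, 11.61 and 11.48 untreated, 11.22, 11.20 and 11.21 at 80 µM, 11.06, 10.96 and 10.92 at 160 µM, and 11.37, 11.38 and 11.36 at 320 µM. No treated array reached the untreated ones, and 160 µM was the lowest group. The log2 change was -0.55 (SE 0.04, limma adjusted p = 1.16e-09) at 160 µM and -0.16 (SE 0.04, limma adjusted p = 0.00338) at 320 µM. PSME3 fell by 0.45 (SE 0.05) at 80 µM and by 0.60 (SE 0.05) at 160 µM, PSMD1 by 0.49 (SE 0.06) and PSMA3 by 0.41 (SE 0.04) at 160 µM. PSMB9 rose at 160 µM by 0.35 (SE 0.08).

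At 320 µM MMS genes of the 19S particle were higher than at 160 µM and those of the immunoproteasome lower. Compared directly with 160 µM at 24 h, 23 members were higher and 8 lower, against 22.6% and 17.4% of all genes tested and 24.5% and 32.2% of the brightest 10%. All 5 tested ATPases and 8 of 9 non-ATPases were higher, with median log2 differences of 0.44 and 0.28. All 3 immunoproteasome subunits were lower, with a median of -0.41. In the standard beta ring 4 of 7 were higher, and in the alpha ring none of 6 was called. For ACTB the 3' probes exceeded the 5' probes by 1.28 (SD 0.008, n = 3) at 160 µM and 1.88 (SD 0.260, n = 3) at 320 µM, beside 0.941 (SD 0.079, n = 3) untreated, and its part in these differences was not tested.

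PSMC2, an ATPase of the 19S base, read 12.15, 12.27 and 12.21 in untreated arrays, 12.38, 12.45 and 12.42 at 160 µM and 12.86, 12.90 and 12.93 at 320 µM. The 3 groups did not overlap. Against 160 µM the log2 difference was 0.48 (SE 0.04, limma adjusted p = 9.53e-09). PSMD3 of the lid was higher by 0.55 (SE 0.07), PSMC3 by 0.46 (SE 0.05), PSMC4 by 0.44 (SE 0.06) and PSMD12 by 0.39 (SE 0.04). Of the immunoproteasome subunits, PSMB9 was lower by 0.44 (SE 0.08), PSMB10 by 0.41 (SE 0.06) and PSMB8 by 0.27 (SE 0.05). PSME1 of their activator was lower by 0.36 (SE 0.05).

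**Figure D3:**
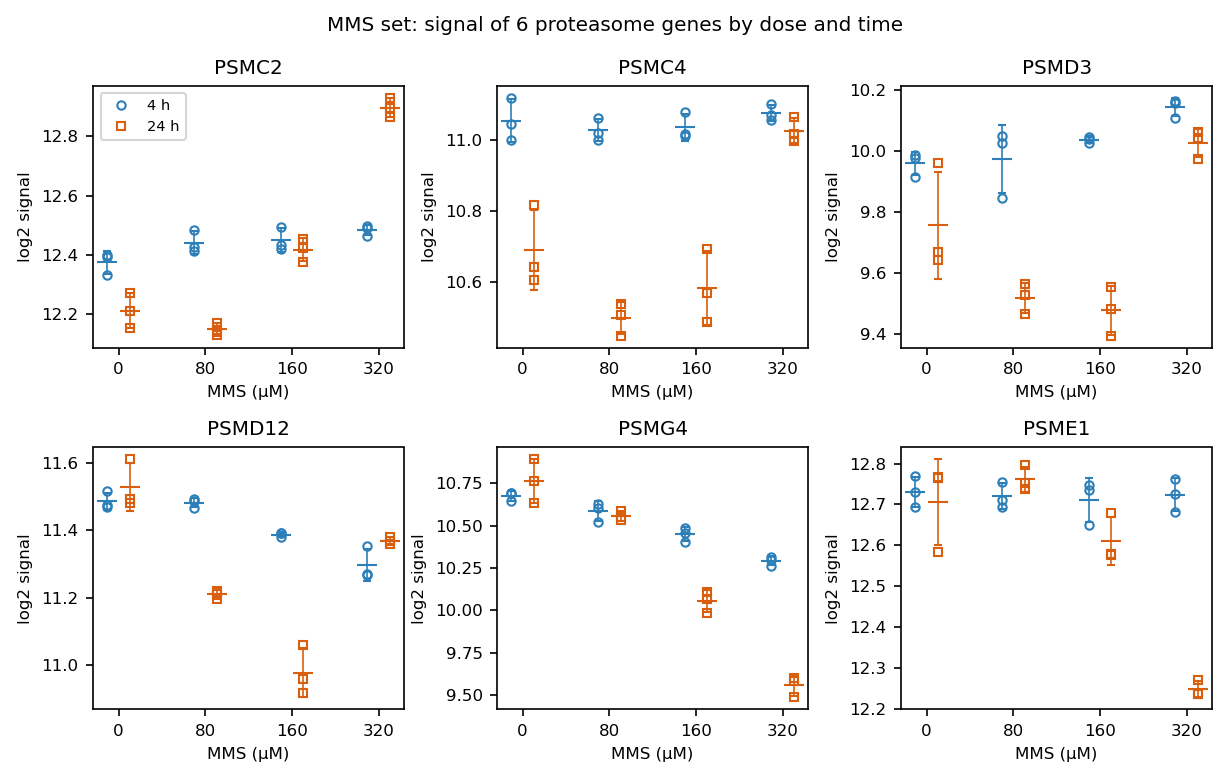
Log2 signal of 6 proteasome genes against MMS dose (µM), at 4 h (circles) and 24 h (squares). Each open symbol is 1 array, bars give the mean and SD of 3 arrays. At 24 h PSMC2, PSMC4, PSMD3 and PSMD12 lie higher at 320 µM than at 160 µM, while PSMG4 and PSME1 lie lower.

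Against untreated arrays, 320 µM MMS at 24 h raised 13 members and lowered 16, beside 30.8% and 27.7% of all genes tested. Of the brightest 10% 26.1% were higher and 48.8% lower, beside 34.0% lower among members. Leaving out experiment 2 turned the balance to 14 rises and 10 falls, and without experiments 1 and 3 there were 9 and 15, and 10 and 14. PSMC2 rose by 0.68 (SE 0.04, limma adjusted p = 5.52e-12), or 1.61-fold. PSMC3 rose by 0.46 (SE 0.05), PSMD4, a ubiquitin receptor, by 0.38 (SE 0.05), and PSMC4 by 0.34 (SE 0.06).

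PSMG4 had the greatest fall, from 10.76, 10.89 and 10.63 to 9.58, 9.49 and 9.60. The log2 change was -1.21 (SE 0.06, limma adjusted p = 6.88e-14), a 2.31-fold lower signal. PSME1 fell from 12.58, 12.77 and 12.76 to 12.27, 12.24 and 12.24, by 0.46 (SE 0.05), and PSMB10 by 0.53 (SE 0.06). None of these genes' treated arrays overlapped the untreated ones. PSMA5 fell by 0.43 (SE 0.05), against its rise with formaldehyde, and all 6 measured B cell markers were lower too.

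PSMC3IP had the largest change of any member. Its untreated arrays read 9.06, 9.03 and 8.96 and those at 320 µM 10.52, 10.60 and 10.53. The log2 rise was 1.53 (SE 0.05, limma adjusted p = 7.92e-16), or 2.90-fold, with no overlap. Both of its probe sets rose. It is matched by name only and is no proteasome subunit.

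The change at 24 h of 320 µM MMS differed from that at 4 h for 22 members, 8 higher and 14 lower, against 25.6% and 19.7% of all genes and 21.2% and 41.3% of the brightest 10%. PSMC3IP was higher by 0.82 (SE 0.08), and PSMG4 lower by 0.82 (SE 0.08). PSMC2 was higher by 0.57 (SE 0.06).

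EMS changed few proteasome genes at 4 h. At 1 mM no member was called, beside 0.143% of all genes, and at 2 mM none was called, beside 1.06%. An unadjusted limma p under 0.05 was reached by 1 member and 589 genes at 1 mM and by 3 members and 1286 genes at 2 mM. At 4 mM 1 member rose and 2 fell, against 5.55% and 4.05% of all genes and 6.49% and 5.63% of the brightest 10%, with 0 to 3 calls when 1 experiment was left out. PSMG4 fell by 0.23 (SE 0.05), PSMB8-AS1, an antisense transcript at PSMB8, by 0.32 (SE 0.08), and PSMC3IP rose by 0.25 (SE 0.05).

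At 24 h of EMS falls outnumbered rises at each dose. At 1 mM 2 members rose and 8 fell, against 15.4% and 8.94% of all genes. The share lower was 17.0%, below the 20.7% of the brightest 10%, of which 17% were higher. Leaving out 1 experiment gave 5 to 8 calls, all of them falls. At 2 mM 3 rose and 17 fell, against 19.9% and 14.7% of all genes. Here the share lower was 36.2%, beside 20.2% higher and 32.7% lower in the brightest 10%, with 10 to 12 calls when 1 experiment was left out. At 4 mM 7 rose and 21 fell, against 27.8% and 23.6%. The share lower at 4 mM was 44.7%, and of the brightest 10% 26% were higher and 46.5% lower.

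PSMG4 fell at 4 mM EMS from 10.87, 10.97 and 10.93 to 9.94, 9.99 and 9.94, by 0.97 (SE 0.05, limma adjusted p = 1.5e-13). PSME3 fell from 10.27, 10.46 and 10.36 to 9.66, 9.75 and 9.64, by 0.68 (SE 0.06). Untreated and treated arrays lay clearly apart in both genes. PSMD1 fell by 0.58 (SE 0.04), PSMD12 by 0.51 (SE 0.04) and PSMG3, the PAC3 chaperone, by 0.47 (SE 0.06). Unlike at 320 µM MMS, 6 of 9 non-ATPases were lower and 1 was higher. PSMB9 rose by 0.22 (SE 0.05) and PSMC2 by 0.23 (SE 0.04). Compared with the 4 h change, 5 members were higher and 15 lower, against 21.4% and 16.9% of all genes and 19.5% and 37.6% of the brightest 10%, with 9 to 12 calls when 1 experiment was left out.

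No proteasome gene was called at 4 h with any dose of colcemid or vincristine in limma. With colcemid 0%, 0.0642% and 0.913% of all genes were called at the lowest, middle and highest dose, and with vincristine 0%, 0.00713% and 0.25%. An unadjusted limma p under 0.05 was reached by 1 member, at the highest colcemid dose, among 265 to 1151 genes across these 6 comparisons.

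At 24 h both spindle poisons changed a mixed set of members. With colcemid 4 rose and 12 fell at the lowest dose (16.6% and 20.7% of all genes), 10 rose and 12 fell at the middle dose (17.4% and 20.3%), and 10 rose and 10 fell at the highest dose (18% and 18.3%). Leaving out 1 experiment gave 10 to 14, 10 to 13 and 8 to 12 calls. With vincristine 7 rose and 6 fell at the lowest dose (16.6% and 20.8%), 8 rose and 8 fell at the middle dose (17.4% and 19.5%), and 9 rose and 6 fell at the highest dose (17.5% and 18.2%). Leaving out 1 experiment gave 7 to 9, 7 to 12 and 7 to 13 calls, and the block gave 20 calls at the lowest dose, and 13 rises and 11 falls at the middle dose. With the block the lowest colcemid dose gave 7 rises and 17 falls. Across these 6 comparisons the members' shares ran from 8.51% to 21.3% higher and from 12.8% to 25.5% lower. The brightest 10% ran from 21.4% to 25.2% higher and from 25.1% to 34.3% lower, and in each comparison both shares of the members lay below those of the brightest 10%.

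PSMG1, the PAC1 chaperone of core assembly, read 11.91, 11.80 and 11.84 in the colcemid set's untreated arrays and 11.46, 11.39 and 11.43 at the highest dose. In the vincristine set it read 11.78, 11.72 and 11.77 untreated and 11.52, 11.47 and 11.36 treated. No arrays overlapped in either set, and the log2 changes were -0.43 (SE 0.04) and -0.31 (SE 0.05). PSMD11 fell by 0.28 (SE 0.05) and 0.34 (SE 0.05), and PSMG4 by 0.37 (SE 0.04) and 0.25 (SE 0.04). PSMC4 rose by 0.19 (SE 0.04) with colcemid and by 0.32 (SE 0.04) with vincristine.

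PSMB8 fell by 0.21 (SE 0.05) with colcemid and by 0.17 (SE 0.06) with vincristine, and PSMB8-AS1 by 0.67 (SE 0.09) and 0.74 (SE 0.09). Whether the probe sets tell the transcripts of both strands apart was not checked. Between the highest doses of both agents no member's change differed, beside 2.02% of all genes. An unadjusted limma p under 0.05 was reached by 1 member and 1456 genes. Between 4 h and 24 h, colcemid gave 4 higher and 5 lower members (10.5% and 12% of all genes, 16.6% and 20.3% of the brightest 10%), with 2 to 4 calls when 1 experiment was left out. Vincristine gave 4 higher and 4 lower (10% and 12.4% of all genes, 13.8% and 19.8% of the brightest 10%), with 4 calls when any 1 experiment was left out.

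**Figure D4:**
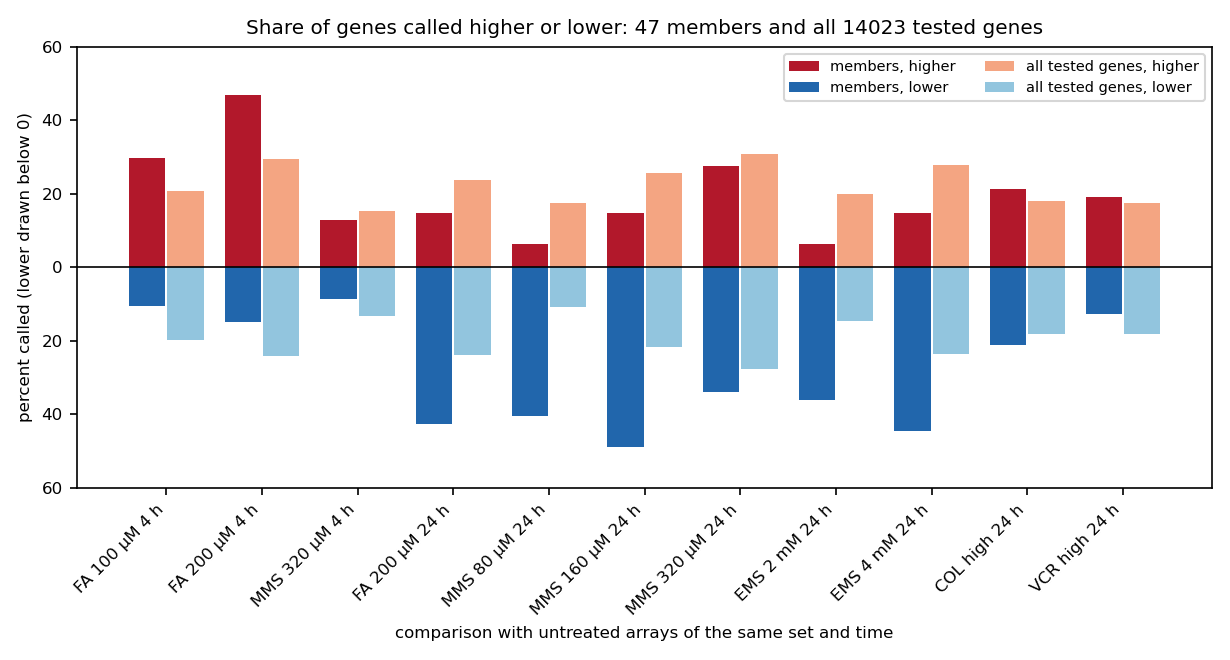
Percent of genes called higher (above 0) and lower (below 0) in 11 comparisons with untreated arrays: the 47 members (dark bars) beside all 14023 tested genes (light bars). At 200 µM formaldehyde and 4 h the members' share higher is 46.8% against 29.6%, and 35% in the brightest 10% of genes. At 24 h their share lower exceeds that of all genes with 200 µM formaldehyde, MMS at each dose, EMS and colcemid. Members and the brightest 10% have 42.6% and 42.3% lower with that formaldehyde dose and 44.7% and 46.5% with 4 mM EMS. With MMS the pairs are 40.4% and 25.3% at 80 µM, 48.9% and 44.2% at 160 µM, and 34% and 48.8% at 320 µM. With the highest colcemid dose they are 21.3% and 29.8%.

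The chemicals were also compared with each other at their highest doses, each as a difference of changes from its own untreated arrays. Doses of different chemicals were not matched, so these differences hold for the doses used. At 24 h the mean ACTB 3' minus 5' difference at the highest dose was 1.88 for MMS, 0.768 for formaldehyde, 0.664 for EMS and 0.512 for colcemid. Untreated it was 0.941, 0.481, 0.521 and 0.540, and its part in these differences was not tested. At 4 h the formaldehyde change was higher than the MMS change for 13 members and lower for 6, against 18.4% and 21.4% of all genes and 25.5% and 16.4% of the brightest 10%. Leaving out 1 experiment gave 8 to 14 calls, with 4 higher without experiment 3, and 11 were higher and 5 lower without the array that stood apart. PSME3 differed by 0.50 (SE 0.08), PSMB9 by 0.44 (SE 0.12), PSMC4 by 0.39 (SE 0.07) and PSMD8 by 0.29 (SE 0.08). PSMD5 differed by -0.58 (SE 0.09). All 3 immunoproteasome subunits were on the higher side, with PSMB10 at 0.29 (SE 0.08) and PSMB8 at 0.22 (SE 0.07).

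At 24 h the formaldehyde change was higher for 6 members and lower for 13, against 14.4% and 21.6% of all genes and 32.2% and 21.5% of the brightest 10%. PSMA5 differed by 0.62 (SE 0.05), PSMB9 by 0.50 (SE 0.12) and PSME1 by 0.35 (SE 0.06), whereas PSMD3 differed by -0.52 (SE 0.09) and PSMC2 by -0.49 (SE 0.05). The 2 alkylating agents differed at 4 h in 1 member, PSMC3IP, at 0.46 (SE 0.07) for MMS over EMS, beside 7.34% of all genes. At 24 h the MMS change exceeded the EMS change for 18 members and was lower for 5, against 15.1% and 11.8% of all genes and 16.5% and 30.1% of the brightest 10%, with 12 to 19 calls when 1 experiment was left out. The higher ones included PSMC2 at 0.45 (SE 0.05), PSMC3 at 0.43 (SE 0.07) and PSMD12 at 0.35 (SE 0.05). Against colcemid at 24 h, MMS was higher for 11 members and lower for 13, beside 27.3% and 21.9% of all genes and 24.9% and 45.3% of the brightest 10%. Without experiment 1 there were 8 of each. The members included PSMG4 at -0.84 (SE 0.07) and PSMC2 at 0.63 (SE 0.05).

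At 24 h 10 members were called lower with the highest doses of formaldehyde, MMS and EMS alike. They were PSMA2, PSMA3 and PSMA4 of the alpha ring, the immunoproteasome subunit PSMB10, PSMD1 and PSMD11 of the 19S particle, the activator PSME3, the chaperones PSMG3 and PSMG4, and the antisense transcript PSMB8-AS1. With MMS at 160 µM in place of 320 µM there were 13, without PSMB10 and with PSMB3, PSMC6, PSMD2 and PSMG1, and 9 members were lower in all 4 comparisons. Shares over all genes were not counted for these overlaps, only for the pairs of comparisons given below. PSMC2, PSMC3IP and PSMA3-AS1 were called higher in these 4 comparisons, while PSMB9 was called higher with formaldehyde, EMS and 160 µM MMS.

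The sets have separate untreated arrays. Falls shared by formaldehyde and 320 µM MMS were 11, or 55.0% of the 20 formaldehyde falls and 68.8% of the 16 MMS falls. Over all genes tested the shares were 67.3% and 58.0%, and in the brightest 10% 80.0% and 69.4%. With 160 µM MMS 17 falls were shared, or 85.0% and 73.9%, against 57.0% and 63.0% over all genes and 75.3% and 72.1% in the brightest 10%. Formaldehyde and 4 mM EMS shared 14 falls, or 70.0% of the formaldehyde falls and 66.7% of the 21 EMS falls. Over all genes these shares were 66.7% and 67.4%, and in the brightest 10% 80% and 72.9%.

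Genes of the wider pathway were counted as well. Of 14 tested proteasome partners without a PSM symbol, 3 rose and 3 fell after 4 h at 200 µM formaldehyde, and 3 rose and 8 fell at 24 h. Over all genes tested 29.6% rose and 24.2% fell at 4 h, and 23.8% rose and 23.9% fell at 24 h. ADRM1, a ubiquitin receptor of the 19S base, rose by 0.36 (SE 0.05) at 4 h and 0.69 (SE 0.05) at 24 h, and by 1.11 (SE 0.08) with 320 µM MMS at 24 h. Of 11 tested genes of the NRF1 pathway and its p97 helpers, 4 rose and 4 fell at 4 h of 200 µM formaldehyde, beside those 29.6% and 24.2%. NFE2L2, which encodes NRF2, fell by 1.19 (SE 0.10), while MAFF, a small partner of NRF factors, rose by 0.91 (SE 0.09) and KEAP1, which holds NRF2 inactive, fell by 0.52 (SE 0.05). The mean of NFE2L2 was 10.42 untreated, 10.80 at 50 µM and 10.90 at 100 µM, so its fall was seen at 200 µM only. In the untreated array that stood apart NFE2L2 read 10.02. NFE2L1, which encodes NRF1, rose by 0.49 (SE 0.04) at 24 h with formaldehyde and by 0.49 (SE 0.04) with 4 mM EMS. At 4 h of formaldehyde the means of NFE2L1 were 10.53 untreated, 10.74 at 50 µM and 10.915 at 100 µM. Its mean at 200 µM and 4 h is not given here, so this series does not describe that dose.

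Antigen processing genes, whose products carry and trim the peptides that the immunoproteasome makes, rose at 24 h with formaldehyde. Of 8 tested, 6 rose and none fell at 24 h with 200 µM formaldehyde, against 23.8% and 23.9% of all genes tested. TAP1, a peptide transporter, rose by 1.64 (SE 0.06) and ERAP2, which trims peptides, by 1.67 (SE 0.11), beside 0.41 for PSMB9. At 320 µM MMS 3 rose and 4 fell, against 30.8% and 27.7% of all genes, with TAP1 up by 1.32 (SE 0.08). Higher changes at 24 h than at 4 h were not particular to formaldehyde. At the highest doses 5 of 8 were higher and 1 lower with formaldehyde, EMS and colcemid alike. With vincristine 4 were higher and 1 lower, and with MMS 3 each way. Over all genes the shares were 25.8% and 27.5%, 21.4% and 16.9%, 10.5% and 12%, 10% and 12.4%, and 25.6% and 19.7%, in that order. Of 3 tested ubiquitin and E1 genes, UBA1, the main ubiquitin-activating enzyme, rose by 0.34 (SE 0.05) at 4 h of 200 µM formaldehyde. UBB rose by 0.13 (SE 0.04) there, beside 29.6% of all genes higher. The change at 24 h was lower than that at 4 h for 2 of these 3 genes, beside 27.5% of all genes.

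Members with several probe sets did not always read alike. Of 47 tested members 27 had 2 or more, and the brightest was used. PSME3 fell on all 4 of its probe sets at 24 h of formaldehyde, between -0.38 and -0.67, and PSMD1 on both, at -0.42 and -0.68. The fall of PSMD12 at 4 h was -0.28 on the probe set used and -0.67 on the dimmer one, which also fell at 24 h, by 0.66, where the brighter one was not called. PSMC2 at 320 µM MMS rose by 0.68 on the brightest probe set and by 0.19 on the next, and read 0.02 on the dimmest.

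PSMG4 rests on 1 of its probe sets. At 320 µM MMS and 24 h the brightest read -1.21, the next -0.21 and another 0.14, the last not called. With the mean of a gene's probe sets the PSMG4 change at the highest doses of colcemid and vincristine at 24 h turned from a fall to 0.00 and 0.05. PSME4 fell at 4 h of formaldehyde by 0.28 on the probe set used and by 0.90 on another, and at 24 h its probe sets were called in opposite directions, at 0.32 and -0.73. PSMB8-AS1 was likewise called in opposite directions at 24 h of formaldehyde, at -0.27 on the probe set used and 0.32 on a dimmer one. With the highest dose of colcemid at 24 h this held for PSMB2 and PSMG4, and with vincristine for PSMG4.

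Across the 120 arrays members did not move as a single block. The correlation of each member with the mean of the others had a median of 0.416, was over 0.5 for 17 of 47 and under 0 for 11. PSMG3, PSMD8, PSME3 and PSMB5 were nearest to the mean of the others, at 0.833, 0.818, 0.804 and 0.802. PSMA3-AS1, PSMD6-AS2 and PSMC3IP, none of them a subunit, were farthest, at -0.523, -0.387 and -0.261, and PSMB9 was at -0.183. The arrays share sets, doses and times, so these correlations describe likeness only.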

How the data were processed

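RNA from TK6 cells was measured on 120 Affymetrix arrays, 3 in each of 40 groups. The authors deposited 1 log2 value for each probe set and array, from RMA, per the submitters' processing notes. Which software ran it, and on which arrays jointly, is not given in the sources used here. Arrays were compared, and 0 pairs were identical.

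The platform's annotation gives a single gene symbol for 41091 of 54675 probe sets, several for 1801 and none for 11721. For each gene the brightest such probe set on average was taken. Testing required 3 or more arrays at or above 6.183, which is the median of all probe set means. Models were linear, from limma 3.58.1 under R 4.3.3 (tables read by data.table at version 1.17.8), 1 per chemical with 24 arrays and 8 group means, and over 48 arrays for differences between chemicals. Two-sided moderated tests were adjusted by Benjamini and Hochberg over all 14023 genes within each of 44 comparisons. The fit was tested on simulated data. Promoters and figures used python 3.11.15 with pandas 2.3.3, numpy 2.4.6 and matplotlib 3.10.9.

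Members and lists were chosen with earlier results of these data known. The named members are a panel of 21 genes, of which PSME2 had no probe set of its own, and up to 5 called members each way in each highest-dose comparison and each difference. From the other lists up to 3 called genes per comparison are named. Other members appear as parts of counts, ranges or dose series, and these and the promoters shown were chosen after their values were seen.

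The labels number experiments 1 to 3 within each set. Same-numbered arrays deviated together, with a mean correlation above 0 in 29 of 30 comparisons and a median of 0.285, but every pair exceeded 0.1 in only 19, and the main fit has no block. Alternatives were the experiment as a block, no brightness filter, quantile normalization, the mean of a gene's probe sets, leaving out each experiment, subunits and cofactors only, and, chosen after seeing the data, every probe set as its own feature and a fit without the 4 h untreated array of the formaldehyde set's experiment 3.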

Additional observations from a re-analysis of the deposited data

Results flagged for a closer look

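The effect of the highest dose differed between 24 h and 4 h, by a limma test of the difference, for 34 members with formaldehyde, 22 with MMS, 20 with EMS, 9 with colcemid and 8 with vincristine. Of members 17% were higher and 55.3% lower with formaldehyde, against 25.8% and 27.5% of all genes tested. With MMS the shares were 17% and 29.8% against 25.6% and 19.7%, and with EMS 10.6% and 31.9% against 21.4% and 16.9%. With colcemid they were 8.51% and 10.6% against 10.5% and 12%. With vincristine they were 8.51% of members each way against 10% and 12.4%. In the brightest 10% of genes 21% were higher and 42.8% lower with formaldehyde. These shares were 21.2% and 41.3% with MMS and 19.5% and 37.6% with EMS, so members had smaller shares lower there. They were 16.6% and 20.3% with colcemid and 13.8% and 19.8% with vincristine. The member with the largest such difference was PSME3 with formaldehyde, at -0.81 on the log2 scale, PSMC3IP with MMS, at 0.82, and PSMG4 with EMS, at -0.74. With colcemid and vincristine it was PSMB8-AS1, at -0.51 and -0.85.

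The effects of chemicals also differed at their highest doses, which were not matched between chemicals. Between formaldehyde and MMS they differed for 19 members at 4 h and 19 at 24 h, most for PSMD6-AS2 at 4 h, at -0.86, and for PSMC3IP at 24 h, at -1.06. Between MMS and EMS they differed at 4 h for 1 member, PSMC3IP, at 0.46, and at 24 h for 23 members, again most for PSMC3IP, at 0.80. Between MMS and colcemid at 24 h they differed for 24 members, with PSMC3IP at 1.71. At 4 h 27.7% of members were higher for formaldehyde than MMS and 12.8% lower, against 18.4% and 21.4% of all genes. At 24 h these shares were 12.8% and 27.7% against 14.4% and 21.6%. For MMS against EMS they were 38.3% and 10.6% against 15.1% and 11.8% at 24 h, beside 7.34% of all genes called at 4 h. For MMS against colcemid they were 23.4% and 27.7% against 27.3% and 21.9%. PSMC3IP, PSMB8-AS1 and PSMD6-AS2 are not proteasome subunits.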

How the results depend on the processing

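Counts of called members in 44 comparisons stayed within 1.5 times the reported count in 41 comparisons with the experiment as a block, 42 without the brightness filter, 37 with quantile normalization and 36 with the mean of a gene's probe sets. With the block, the experiment numbers being the pairing, calls numbered 2 for 100 µM formaldehyde at 24 h, 20 for the lowest vincristine dose at 24 h and 11 for 200 against 100 µM formaldehyde at 4 h. Without the filter they were 0 for 100 µM formaldehyde at 24 h and 2 for 160 µM MMS at 4 h. With quantile normalization they were 0 for 100 µM formaldehyde at 24 h, 5 for 4 mM EMS at 4 h, 16 for 1 mM EMS at 24 h, 23 for the lowest vincristine dose at 24 h, 16 and 19 for the time differences of colcemid and vincristine, and 2 for MMS against EMS at 4 h. With the mean of probe sets they were 0 for 100 µM formaldehyde at 24 h, 1 each for 80 µM MMS, 2 mM EMS and 4 mM EMS at 4 h, 5 for the colcemid time difference, 13 for 200 against 100 µM formaldehyde at 4 h, 31 for formaldehyde against MMS at 4 h and 3 for MMS against EMS at 4 h. Among subunits and cofactors alone, 0 were called for 100 µM formaldehyde at 24 h and 1 for 4 mM EMS at 4 h. The causes were not tested, apart from the fewer genes counted in the last case. Leaving out 1 experiment gave 9 to 17 calls for 100 µM and 16 to 23 for 200 µM formaldehyde at 4 h, 0 to 0 for 100 µM at 24 h, 1 to 2 and 2 to 8 for 160 and 320 µM MMS at 4 h, 9 to 15 for 80 µM MMS at 24 h, 0 to 3 for 4 mM EMS at 4 h, 5 to 8 and 10 to 12 for 1 and 2 mM EMS at 24 h, 10 to 14, 10 to 13 and 8 to 12 for the colcemid doses and 7 to 9, 7 to 12 and 7 to 13 for the vincristine doses at 24 h. It gave 9 to 12, 2 to 4 and 4 to 4 for the time differences of EMS, colcemid and vincristine, 4 to 6 and 12 to 17 for 200 against 100 µM formaldehyde at 4 h and 24 h, 8 to 14 for formaldehyde against MMS at 4 h and 12 to 19 for MMS against EMS at 24 h. Dropping an experiment also leaves fewer arrays. With the mean of probe sets 9 of 224 named changes turned their sign: PSMG4 to 0.0035 and 0.048 at 24 h with colcemid and vincristine, to 0.046, 0.071 and 0.050 in the colcemid, formaldehyde and vincristine time differences and to -0.050 for formaldehyde against MMS at 4 h, PSMC2 to -0.0061 in the EMS time difference, PSMB7 to -0.078 with 200 µM formaldehyde at 4 h and PSMD12 to 0.19 with 320 µM MMS at 4 h. Named changes kept their call and direction in 224 of 224 cases with the block, 208 without the filter, 220 with quantile normalization, 181 with the mean of probe sets, and 165, 183 and 177 without experiments 1, 2 and 3. Signal over background was low for PSMG3-AS1, which reached the brightness limit in 5 arrays, and for some dimmer probe sets of PSMA3, PSMG4 and PSMD5.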
